A study of Mus musculus with 8 samples.

Results

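Chitinase-like proteins are secreted proteins of glycoside hydrolase family 18 that keep the fold of a chitinase but do not cleave chitin. The 4 genes described here were the rows of the deposited count table with the symbols Chil1, Chil3, Chil4 and Chil5, and all 4 were found among the 13387 genes of the table. They were chosen by their symbols with their counts in MKs cultured alone and in cocultures already known, so their differences between the groups are given as a description and without a test.

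The libraries came from bone marrow MKs of C57BL/6 mice. MKs were cultured for 18 hours either alone (4 libraries) or with MSCs (4 libraries), and the labels name no further treatment or genotype in either group. According to the study's methods, MKs were enriched by CD41 and MSCs were sorted as CD45-Ter119-CD31-CD51+CD140a+ cells. The labels give the cells as MKs, whereas the study's methods describe sequencing of the platelets pooled from the cultures.

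In the mouse, Chil3 (also named Ym1) is a lectin stored in neutrophil granules and is made in large amounts by granulocyte precursors, certain monocytes and macrophages exposed to IL-4 or IL-13. Chil4 (Ym2) is a close copy of Chil3 that is best known from the airway epithelium in allergic inflammation, and Chil1 is the mouse counterpart of human CHI3L1, a glycoprotein of neutrophils, macrophages and stromal cells. In marrow these genes are mostly known from developing granulocytes.

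Total counts ranged from 4939874 to 12523616 per library, and 3 counts, taken as the lowest level that can be told from 0, corresponded to 0.284 to 0.662 CPM (depth-normalized counts, with library totals adjusted by TMM factors). Such limits cover counting error only. Replicate 3 of the cocultures stood apart from the other libraries, with counts on 10735 genes against 12406 to 13193 elsewhere and the lowest TMM factor, 0.76. Values that rest on it are therefore also given without it. The study gives the n of its RNA-Seq in mice, but the labels do not tie these libraries to separate mice, and p-values measure the spread between these libraries, part of which may be technical.

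Chil3, Chil4 and Chil5 lie close together on the minus strand of chromosome 3 (GRCm38, the build of mm10, with GENCODE vM21 annotation). Chil5 (ENSMUSG00000043873) spans chr3:106016919-106032814, Chil3 (ENSMUSG00000040809) spans chr3:106147554-106167564 and Chil4 (ENSMUSG00000063779) spans chr3:106201490-106219507, each with 11 exons in its longest coding transcript. Chil1 (ENSMUSG00000064246) lies apart from them, on the plus strand at chr1:134182176-134190181, with 10 exons.

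The copies on chromosome 3 are alike enough to affect how reads are assigned. The longest coding transcripts of Chil3 and Chil4 were identical at 1452 of 1538 aligned bases (94.4%). Identity was 75.8% between Chil3 and Chil5, 76.5% between Chil4 and Chil5, and 62.8% to 64.6% between Chil1 and the other 3. Of the 1509 words of 31 bases in the Chil3 transcript, 676 (44.8%) also occurred in transcripts of other genes, and 470 of them were shared with Chil4. For Chil4 the share was 35.4%, for Chil5 7.19%, and for Chil1 none of 1809 words was shared. Of the 91 shared words of Chil5, 89 occurred in transcripts of Gm42722 and 2 in those of Chil3. Over all annotated transcripts of a gene, the share was 19.2% for Chil4 and 17.8% for Chil5. A further annotated gene, Gm6522, shared 26% of the words of Chil3 and 16.4% of those of Chil4 and was not analysed here.

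**Figure D1:**
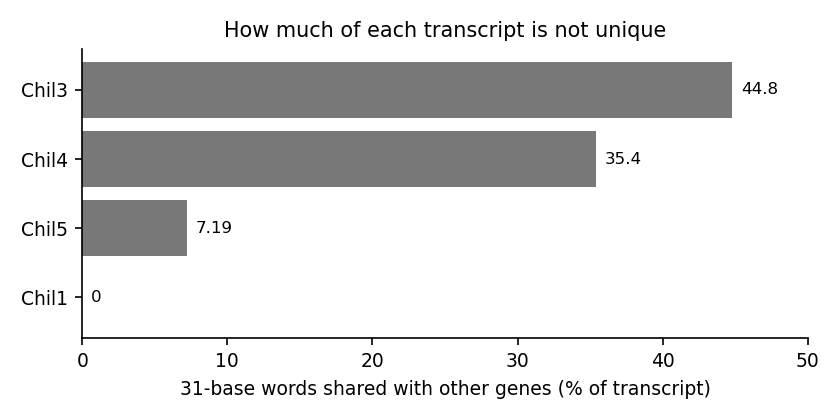
Percentage of the 31-base words of each longest coding transcript that also occur in a transcript of another gene (x axis, percent), for the 4 chitinase-like genes. Chil3 (44.8%) and Chil4 (35.4%) share the largest part of these 4 transcripts, Chil5 shares 7.19% and Chil1 shares none.

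The longest run of bases that Chil3 and Chil4 have in common is shown because a read that lies wholly within it cannot be told apart between the genes. It is 136 bases long, covers positions 1030 to 1165 of both transcripts within the coding region, and crosses from exon 9 into exon 10. With the intron between these exons, it spans chr3:106148634-106148850 for Chil3 and chr3:106202574-106202790 for Chil4 (GRCm38, minus strand, GENCODE vM21 transcripts), and it is printed without capitals because no base differs.

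Chil3 and Chil4: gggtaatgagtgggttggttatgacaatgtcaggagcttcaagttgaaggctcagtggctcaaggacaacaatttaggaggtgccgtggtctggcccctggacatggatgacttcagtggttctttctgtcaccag

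The windows around the start sites were alike too, and they are shown because the levels of Chil3 and Chil4 in the libraries were far apart. Each window runs from 250 bases before to 50 bases after the RefSeq start (GRCm38.p6), at chr3:106167515-106167814 for Chil3 and chr3:106219430-106219729 for Chil4, both on the minus strand. Of 271 aligned bases, 251 (92.6%) were identical, and capitals mark the 20 that differ.

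Chil3: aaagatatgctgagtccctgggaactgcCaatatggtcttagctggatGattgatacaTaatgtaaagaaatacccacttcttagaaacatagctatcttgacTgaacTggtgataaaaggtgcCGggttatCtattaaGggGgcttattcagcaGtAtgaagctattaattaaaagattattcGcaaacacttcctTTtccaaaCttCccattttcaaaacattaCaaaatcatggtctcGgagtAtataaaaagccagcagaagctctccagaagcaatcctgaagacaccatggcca

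Chil4: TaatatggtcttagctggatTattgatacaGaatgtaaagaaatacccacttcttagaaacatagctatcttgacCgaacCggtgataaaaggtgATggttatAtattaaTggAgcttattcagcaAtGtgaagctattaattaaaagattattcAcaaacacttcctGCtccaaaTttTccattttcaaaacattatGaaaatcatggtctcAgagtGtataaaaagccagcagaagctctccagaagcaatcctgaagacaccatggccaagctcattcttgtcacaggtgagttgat

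TATAAA was found on the strand of the gene 3 bases before the RefSeq start of Chil3 and 31 bases before that of Chil4. It lies inside a stretch that both windows share, so the RefSeq starts do not fall on the same base of the alignment. The distance for Chil4 depends on the annotation, since its GENCODE vM21 span begins further upstream, at chr3:106219507 on the minus strand. In the GENCODE transcripts of both genes the coding region begins at base 44. TATAAA was not found in the windows of Chil1 and Chil5, and it occurred in 13.6% of 32851 RefSeq promoter windows of the same length when both strands were searched. TTNCNNAA, a loose form of the site read by C/EBP factors, was found in all 4 windows and in 40.7% of all windows. Neither TTCNNNNGAA, a form read by STAT6, nor GAGGAA, the form read by PU.1, was found in the 4 windows. They occurred in 6.95% and 28.3% of all windows. Forms with another number of bases between the ends of TTCNNNNGAA were not searched. The printed windows of Chil3 and Chil4 both hold ttcttagaa, in which 3 bases lie between the same ends. A match of these letters is a description of the window only.

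Chil3 was among the most abundant transcripts of MKs cultured alone and was lower in every coculture. Its level was 8806, 8896, 8377 and 7206 CPM in replicates 1 to 4 of MKs cultured alone, and 1361, 1173, 389 and 1124 CPM in replicates 1 to 4 of the cocultures. The groups did not overlap, the lowest MK-alone library lay 5.30-fold above the highest coculture, and the lowest value belonged to replicate 3 of the cocultures.

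The raw counts behind these levels were 39900, 86314, 75545 and 44294 in MKs cultured alone and 14355, 9004, 3716 and 6478 in cocultures, so counting error is small beside the spread between libraries. The mean was 8321 ± 777 CPM (SD, n = 4) in MKs cultured alone and 1011 ± 427 CPM (SD, n = 4) in cocultures. The fitted log2 fold change was -3.04 ± 0.38 (SE, derived from this value and the F statistic of edgeR's test). Without replicate 3 the coculture mean was 1219 ± 125 CPM (SD, n = 3) and the log2 fold change -2.79 ± 0.20, so most of the spread of Chil3 among cocultures came from that library.

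Per kilobase of the longest coding transcript, which allows genes to be compared, Chil3 stood at 5407 CPM per kb in MKs cultured alone, rank 10 of 13374 genes with a length. In cocultures it stood at 657 CPM per kb, rank 110. A single gene thus took 0.725% to 0.931% of all counts of MKs cultured alone and 0.0297% to 0.143% of those of cocultures. In bulk libraries, fewer cells of a type and less RNA per cell cannot be told apart, and this holds for each level given here.

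Chil1 was lower in every coculture as well, from a level far below that of Chil3. It measured 291, 419, 351 and 334 CPM in MKs cultured alone and 41.4, 35.6, 59.7 and 57.9 CPM in cocultures. The groups did not overlap, and replicate 3 of the cocultures, the lowest for Chil3, was the highest coculture for Chil1. Means were 349 ± 53.4 and 48.7 ± 12.0 CPM (SD, n = 4 each), with a log2 fold change of -2.84 ± 0.24 (-2.98 ± 0.22 without replicate 3 of the cocultures). Per kilobase, Chil1 stood at 190 CPM per kb in MKs cultured alone and 26.5 CPM per kb in cocultures. Over all 8 transcripts that GENCODE vM21 gives for Chil1, none of 2825 words of 31 bases occurred in a transcript of another gene, against 41.5% of 1629 words over the 3 transcripts of Chil3.

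Chil5, a further copy on chromosome 3, was low in MKs cultured alone and near or at 0 in cocultures. Its level was 16.8, 16.8, 21.1 and 16.1 CPM in MKs cultured alone and 0, 1.04, 0 and 0.173 CPM in cocultures. The coculture values rested on 0, 8, 0 and 1 counts, against 76 to 190 counts in MKs cultured alone, so only replicate 2 lay above the limit of 3 counts. Means were 17.7 ± 2.28 and 0.304 ± 0.499 CPM (SD, n = 4 each). The log2 fold change of -5.85 ± 1.20 rests on these few counts. It was -5.49 ± 0.56 without replicate 3 of the cocultures and -8.21 without replicate 2, which held 8 of the 9 coculture counts.

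Chil4 was close to the limit of detection in both groups. It measured 1.54, 2.47, 1.22 and 1.46 CPM in MKs cultured alone and 0.758, 0.130, 0 and 0.347 CPM in cocultures, from 51 counts in the MK-alone libraries together and 11 in the cocultures together. The groups did not overlap, but of the cocultures only replicate 1, with 8 counts, lay above the limit of 3 counts. Chil4 did not pass edgeR's filter on low counts, and a fit without that filter gave a log2 fold change of -2.38 ± 1.02.

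**Figure D2:**
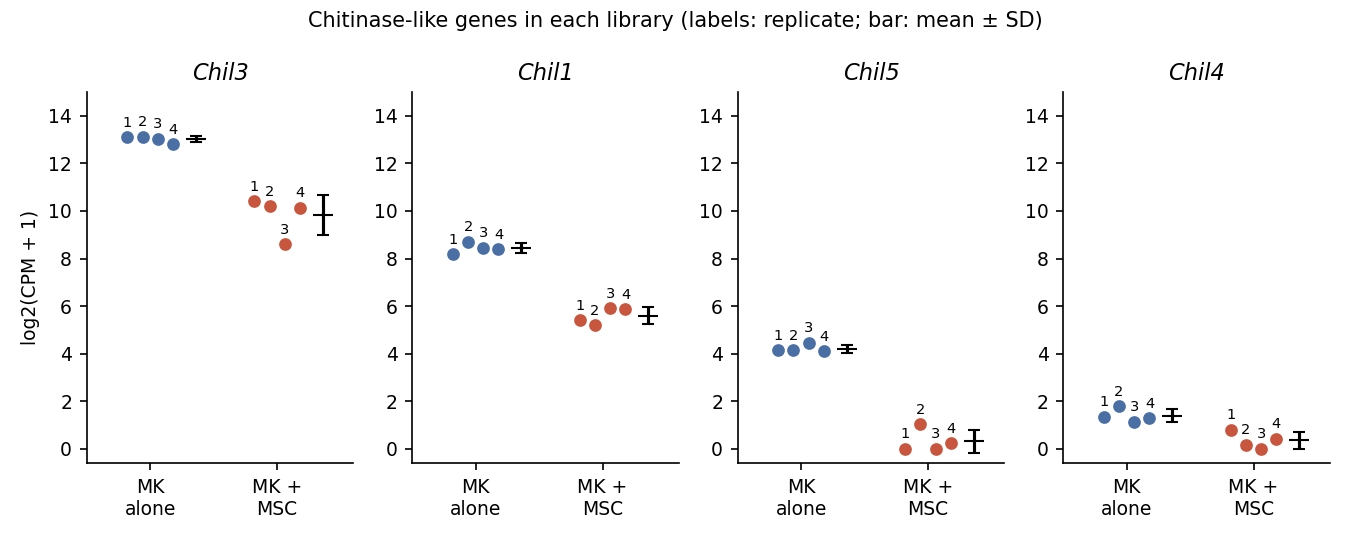
Level of each chitinase-like gene as log2(CPM + 1) on the y axis, with 1 point per library labelled by its replicate number, for MKs cultured alone and MKs cocultured with MSCs, and a bar for the mean ± SD (n = 4). All 4 genes lie lower in cocultures without overlap, and replicate 3 of the cocultures is the lowest point for Chil3 and the highest coculture point for Chil1.

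Of the 4 chitinase-like genes, 3 passed the filter on low counts, and edgeR's calls (adjusted p of at most 0.05, at least a 2-fold change, at least 1 CPM in a group) placed all 3 lower. Among all 11722 genes tested, 20.5% were called in either direction and 7.31% were called lower. The calls in either direction numbered 2401 (1544 higher and 857 lower, or 1857 and 630 when libraries were scaled to MK and platelet markers), and 4420 without replicate 3 of the cocultures, with all 3 chitinase-like genes among them in both cases. In every one of the 4 genes each coculture lay below each MK-alone library, as it did in 21.1% of all genes tested. Since the genes were chosen with this contrast known, nothing is read from these counts. The median log2 fold change was -3.04 over the 3 genes and 0.034 over all genes tested, and 1.71% of tested genes had a log2 fold change below that of Chil3.

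Chil3 held nearly all of the chitinase-like counts in both groups. Its share was 96.6%, 95.3%, 95.7% and 95.4% in MKs cultured alone, and 97.0%, 97.0%, 86.7% and 95.1% in cocultures. The 86.7% in replicate 3 of the cocultures (Wilson 95% confidence interval 85.6% to 87.7%) was the only value under 95%. Means were 95.7 ± 0.603% and 93.9 ± 4.91% (SD, n = 4 each), and the coculture mean was 96.3 ± 1.11% (n = 3) without that library, which turns the sign of the difference between the groups.

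The same library stood out in the ratio of Chil3 to Chil1 counts, with 6.51 Chil3 counts for each Chil1 count. Replicates 1 and 2 of the cocultures had 32.8 and 33.0, above the 21.2 to 30.3 of MKs cultured alone, and replicate 4 had 19.4, below that range. Chil4 counts made up 0.0146% to 0.0278% of the Chil3 and Chil4 counts together in MKs cultured alone. In cocultures the share was 0.0557%, 0.0111%, 0 and 0.0309%, where the 0 allows up to 0.0992% (exact 95% interval). The exact intervals of the cocultures overlapped those of the MK-alone libraries, but they cover the counting error of single libraries only. A difference between the groups in the share of Chil4 was not tested. With nearly all counts of the pair on Chil3, a small share of Chil3 reads assigned to Chil4 would be as large as the Chil4 level itself, and how kallisto divided the shared words was not tested.

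Across the 8 libraries, log2(CPM + 1) of each pair of the 4 genes correlated with Pearson's r between 0.848 (Chil4 and Chil5) and 0.956 (Chil3 and Chil5). These points share the difference between the groups, the libraries and their scaling, so the values describe the pattern only. Among 11719 other genes, those most like Chil3 were Casp2 (r = 0.999), an initiator caspase, Cd96 (0.998), a receptor of lymphocytes, and Ly6g (0.998), a surface marker of mature neutrophils. For Chil1 they were Ppp1r16b (0.997), Cyfip2 (0.994) and Ltf (0.991), which encodes the neutrophil granule protein lactoferrin. For Chil5 they were Chdh (0.999), Inpp5d (0.997) and Klrb1c (0.996), and for Chil4 F11r (0.981), Olfr639 (0.962) and G530012D18Rik (0.961). When a library was left out, 3 to 9 of these 12 genes stayed among the most alike, with 3 when it was replicate 3 of the cocultures.

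Other genes of the pathway were taken from lists that share no gene with the 4 members. The lists were chosen with earlier results of these data known. Their counts of calls and adjusted p-values are therefore given as a description. Across 14 lists with 122 genes, 110 were measured and 104 tested. Of these, edgeR's quasi-likelihood test with Benjamini-Hochberg adjustment over all genes called 21 higher and 48 lower in cocultures. Among all 11722 genes tested, 13.2% were called higher and 7.31% lower, and these shares stand beside the counts of each list below.

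The relatives in glycoside hydrolase family 18 summed to 24.9 to 34.0 CPM in MKs cultured alone and 44.9 to 56.1 CPM in cocultures. Of 6 relatives, 4 were measured and 3 tested, with a median log2 fold change of 0.75. None of the 3 was called in either direction by edgeR or by DESeq2, and none had an unadjusted p under 0.05 in edgeR. Chid1, a lysosomal and secreted chitinase-domain protein, measured 11.8 ± 4.02 CPM in MKs cultured alone and 23.0 ± 16.3 CPM in cocultures (log2 fold change 0.96 ± 1.04, edgeR adjusted p = 0.554). Ctbs, the lysosomal chitobiase, measured 14.2 ± 1.06 and 13.2 ± 9.01 CPM (log2 fold change -0.10 ± 0.91, edgeR adjusted p = 0.948). These genes were at 0.105 and 0.209 CPM in replicate 3 of the cocultures, and without that library Chid1 had a log2 fold change of 1.33 and was called higher, while Ctbs had 0.29.

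Ovgp1, the oviduct glycoprotein, and Chit1, the active chitotriosidase of macrophages, were instead high in that library. Ovgp1 measured 2.77 to 5.32 CPM in MKs cultured alone, 0.261 to 2.09 CPM in replicates 1, 2 and 4 of the cocultures and 21.1 CPM in replicate 3. Its log2 fold change was 0.75 (edgeR adjusted p = 0.665), and -1.47 without that library, where it was called lower. Chit1 was not tested, with at most 0.515 CPM in every library except replicate 3 of the cocultures, where it measured 24.9 CPM.

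Among the known binding partners of the human and mouse CHI3L1 protein, 4 of 7 were measured and tested, and 2 were called higher, with a median log2 fold change of 0.67. Their sum was 1435 to 1817 CPM in MKs cultured alone and 2499 to 10432 CPM in cocultures. Sdc1, the proteoglycan syndecan-1, rose from 10.2 ± 0.801 to 154 ± 64.1 CPM (log2 fold change 3.90 ± 0.35, edgeR adjusted p = 0.000113). Lgals3, which encodes galectin-3, rose from 1072 ± 229 to 4400 ± 3904 CPM (log2 fold change 2.04 ± 0.54, edgeR adjusted p = 0.0255). Lgals3 reached 10205 CPM in replicate 3 of the cocultures, and its call was lost when any 1 of the MK-alone libraries was left out (adjusted p up to 0.0844). Without replicate 3 of the cocultures its log2 fold change was 1.18. Cd44, a hyaluronan receptor, measured 538 ± 79.2 and 291 ± 99.8 CPM (log2 fold change -0.89 ± 0.29, edgeR adjusted p = 0.0548), and Tmem219, a death receptor-like membrane protein, 18.8 ± 4.47 and 11.7 ± 7.75 CPM (log2 fold change -0.70 ± 0.83, edgeR adjusted p = 0.591).

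The receptors and transcription factors known to induce Chil3 were all 11 tested, with 1 called higher, 2 lower and a median log2 fold change of -0.71. Cebpe, Csf2rb and Cebpb were the genes called, and were named after their values were seen. Cebpe, the C/EBP factor of late granulocyte development, fell from 80.4 ± 24.8 to 9.19 ± 6.26 CPM (log2 fold change -3.13 ± 0.63, edgeR adjusted p = 0.00753). Csf2rb, the shared receptor chain for GM-CSF, IL-3 and IL-5, fell too (log2 fold change -1.45 ± 0.29, edgeR adjusted p = 0.00807). Cebpb, a C/EBP factor of macrophages, rose from 38.7 ± 11.2 to 202 ± 169 CPM (log2 fold change 2.38 ± 0.55, edgeR adjusted p = 0.0148), and its call was lost without replicate 1 or 2 of MKs cultured alone. Cebpb reached 447 CPM in replicate 3 of the cocultures, and without that library its log2 fold change was 1.61.

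Stat6, which relays IL-4 and IL-13 signals, measured 293 ± 26.6 and 179 ± 35.3 CPM. Its log2 fold change of -0.71 ± 0.20 (edgeR adjusted p = 0.031) was under the 2-fold limit and was not called. Spi1, which encodes PU.1, measured 227 ± 52.5 and 137 ± 112 CPM (log2 fold change -0.73 ± 0.49, edgeR adjusted p = 0.325). Spi1 stood at 303 CPM in replicate 3 of the cocultures, and without that library its log2 fold change was -1.50 and it was called lower. Leaving that library out brought the calls of the whole list to 3 higher and 4 lower.

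Genes of alternatively activated macrophages, the setting in which Chil3 is often used as a marker, did not move together. Of 11 genes, 6 were measured and 4 tested, with 1 called higher, 2 lower and a median log2 fold change of -0.66, and their summed level was 19.3 to 26.4 CPM in MKs cultured alone and 27.7 to 73.1 CPM in cocultures. Mrc1, the mannose receptor, rose from 3.25 ± 2.17 to 28.8 ± 8.41 CPM (log2 fold change 3.16 ± 0.70, edgeR adjusted p = 0.0121). The lectins Mgl2, at 8.98 ± 1.80 and 0.531 ± 0.603 CPM, and Clec10a, at 3.49 ± 1.74 and 0.336 ± 0.235 CPM, fell (log2 fold changes -4.11 and -3.34, edgeR adjusted p = 0.0177 and 0.0294). These 2 genes and Retnla were named after their values were seen. The calls of Mgl2 and Clec10a were both lost without any 1 of the MK-alone libraries or without replicate 1 or 2 of the cocultures, and that of Clec10a also without replicate 4. Without replicate 3 of the cocultures, 3 genes of the list were called lower. Retnla, which is often measured with Chil3, was listed at 1.54 ± 0.190 and 0.266 ± 0.117 CPM and was not tested, and Egr2 had a log2 fold change of 2.02 ± 0.86 that was not called (edgeR adjusted p = 0.125). Egr2 measured 32.1 CPM in replicate 3 of the cocultures, and without that library its log2 fold change was 0.59.

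Neutrophil genes, whose granules hold Chil3, were lower as a whole in cocultures. Among azurophil granule genes, made at the promyelocyte stage, 5 of 5 were called lower, with a median log2 fold change of -4.05. Among specific and gelatinase granule genes, made at the later myelocyte and metamyelocyte stages, 9 of 9 were called lower, with a median of -2.74, and among genes of mature neutrophils 8 of 8, with a median of -3.20. The median over all genes was 0.034 and 7.31% of all genes were called lower. No gene of the 3 lists was at 0 in a whole group.

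The summed level of the azurophil genes was 3339 to 5732 CPM in MKs cultured alone and 74.1 to 299 CPM in cocultures. Mpo, myeloperoxidase, fell from 3169 ± 717 to 128 ± 62.0 CPM (log2 fold change -4.63 ± 0.50, edgeR adjusted p = 0.00027), and Elane, neutrophil elastase, from 1080 ± 254 to 50.3 ± 15.3 CPM (log2 fold change -4.43 ± 0.32, edgeR adjusted p = 4.13e-05). The specific and gelatinase genes summed to 21040 to 26333 and 2724 to 4123 CPM. Ngp, neutrophilic granule protein, fell from 9421 ± 1954 to 1224 ± 150 CPM (log2 fold change -2.94 ± 0.23, edgeR adjusted p = 5.44e-05), and Mmp8, neutrophil collagenase, from 5054 ± 428 to 409 ± 221 CPM (log2 fold change -3.63 ± 0.54, edgeR adjusted p = 0.00178).

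The genes of mature neutrophils summed to 60412 to 66167 CPM in MKs cultured alone and 2467 to 7801 CPM in cocultures, with the lowest value in replicate 3 of the cocultures. S100a8, a subunit of calprotectin, fell from 48457 ± 4890 to 4404 ± 1966 CPM (log2 fold change -3.46 ± 0.42, edgeR adjusted p = 0.000565), and its partner S100a9 from 9897 ± 1854 to 1209 ± 376 CPM (log2 fold change -3.03 ± 0.31, edgeR adjusted p = 0.000211). Set beside the medians of the 3 lists, Chil3 at -3.04 and Chil1 at -2.84 lay between the specific and gelatinase granule genes and the genes of mature neutrophils, while Chil5 at -5.85 lay below all 3 medians. The median of the mast cell and basophil list, -2.82, was as close to Chil1. Whether neutrophil RNA accounts for the chitinase-like levels was not tested.

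Within each library the count of Chil3 was set against the summed counts of each neutrophil list, a ratio that does not depend on the scaling of the library. Against the azurophil genes, Chil3 had 1.39 to 2.64 counts for each list count in MKs cultured alone and 3.93 to 5.78 in cocultures, without overlap. Against the mature neutrophil genes the ratio was 0.113 to 0.146 and 0.158 to 0.174, again without overlap, with means of 0.133 ± 0.0141 and 0.165 ± 0.00872 (SD, n = 4 each). Against the specific and gelatinase genes the groups overlapped, at 0.314 to 0.419 and 0.143 to 0.377 (0.273 to 0.377 in cocultures without replicate 3). In each coculture more Chil3 counts therefore stood against the summed azurophil and the summed mature neutrophil counts than in any MK-alone library. S100a8 made up most of the mature neutrophil sum, with 48457 of 62861 CPM in MKs cultured alone and 4404 of 6066 CPM in cocultures (means). That ratio thus mainly sets Chil3 against S100a8. Fitted log2 fold changes were -3.46 for S100a8, -3.03 for S100a9 and -3.04 for Chil3. The count ratios use the contrast by which Chil3 was chosen and were not tested.

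**Figure D3:**
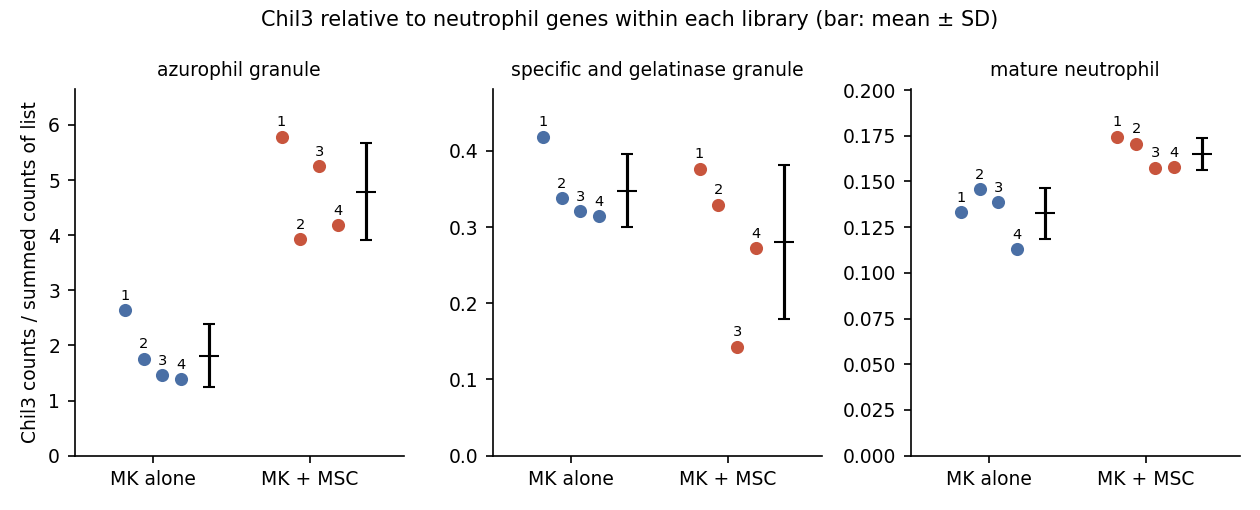
Chil3 counts divided by the summed counts of the azurophil, the specific and gelatinase, and the mature neutrophil gene list in the same library (y axis, ratio of counts, with a scale of its own in each panel), for MKs cultured alone and cocultures, with 1 point per library and a bar for the mean ± SD (n = 4). The ratio is higher in all cocultures for the azurophil list (3.93 to 5.78 against 1.39 to 2.64) and the mature neutrophil list, and overlaps between the groups for the specific and gelatinase list. S100a8 makes up most of the sum of the mature neutrophil list.

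Genes of other cells that can make chitinase-like proteins did not all change in the same direction. Of 7 monocyte genes, 4 were called lower and 2 higher, with a median log2 fold change of -1.42 and a summed level of 1315 to 1546 CPM in MKs cultured alone and 612 to 1443 CPM in cocultures. Ly6c2, the surface marker of inflammatory monocytes, fell from 934 ± 86.8 to 144 ± 38.6 CPM (log2 fold change -2.70 ± 0.25, edgeR adjusted p = 0.00012). Fn1, fibronectin, which stromal cells also make, rose from 22.3 ± 2.31 to 637 ± 270 CPM (log2 fold change 4.84 ± 0.40, edgeR adjusted p = 7.5e-05).

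Macrophage genes were higher, with 8 of 9 tested genes called higher (10 genes without replicate 3 of the cocultures, when more were tested), against 13.2% of all genes, and a summed level of 99.7 to 119 CPM in MKs cultured alone and 2231 to 2685 CPM in cocultures. Their median log2 fold change was 6.39, or 4.70 with Marco, named after its value was seen because it was at 0 in all MK-alone libraries, placed at the bound of 3 counts. Gpnmb, a glycoprotein of lysosome-rich macrophages, rose from 12.9 ± 2.74 to 1344 ± 185 CPM (log2 fold change 6.70 ± 0.26, edgeR adjusted p = 4.09e-06), and Cd68 from 38.7 ± 7.12 to 298 ± 143 CPM (log2 fold change 2.94 ± 0.34, edgeR adjusted p = 0.000435). Chil3 had 72.3 to 81.6 counts for each macrophage list count in MKs cultured alone and 0.145 to 0.610 in cocultures, so Chil3 was low in the libraries in which macrophage genes were high.

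Eosinophil genes were lower, with 9 of 10 called and a median log2 fold change of -4.83, and their sum went from 1152 to 1867 CPM in MKs cultured alone to 13.8 to 70.4 CPM in cocultures. Prg2, the eosinophil major basic protein, fell from 1035 ± 265 to 27.1 ± 14.2 CPM (log2 fold change -5.26, edgeR adjusted p = 0.000128), and Epx, eosinophil peroxidase, from 139 ± 37.3 to 5.55 ± 3.96 CPM (log2 fold change -4.66, edgeR adjusted p = 0.000681). Of 6 mast cell and basophil genes 4 were called lower, with a median of -2.82 and sums of 1043 to 1194 and 104 to 259 CPM. Cpa3, mast cell carboxypeptidase, fell from 396 ± 53.6 to 20.7 ± 12.9 CPM (log2 fold change -4.26 ± 0.43, edgeR adjusted p = 0.000205), and the basophil protease Prss34 had -2.44 ± 0.90 and was not called (edgeR adjusted p = 0.0851). Prss34 was called lower by DESeq2, at -2.47, and by edgeR without replicate 3 of the cocultures, at -2.05. Of 6 B cell genes 4 were called lower, with a median of -2.38 and sums of 849 to 896 and 61.1 to 219 CPM, among them Ms4a1 at -2.82 (edgeR adjusted p = 0.0196) and Cd79a at -2.30 (edgeR adjusted p = 0.00143). Without replicate 1 of MKs cultured alone, or without replicate 2 of the cocultures, 2 B cell genes were called lower and Ms4a1 was not among them.

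Markers of MSCs were higher, with 7 of 7 tested genes called, a median log2 fold change of 10.95 and sums of 14.5 to 19.4 CPM in MKs cultured alone and 1779 to 4785 CPM in cocultures. The size of this median is not well determined. Lox, and Col1a1, Col3a1 and Cxcl12, named after their values were seen, averaged at most 0.287 CPM in MKs cultured alone. This is under the mean limit of 3 counts in these libraries, 0.448 CPM. Sparc, a matrix glycoprotein, measured 0.548 ± 0.433 CPM in MKs cultured alone and 963 ± 361 CPM in cocultures (edgeR adjusted p = 1.8e-05), and Lox, lysyl oxidase, was at 0 in every MK-alone library and at 885 ± 261 CPM in cocultures.

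The markers of MKs and platelets, which check the labelled cell type, were present in every library, with sums of 1920 to 2183 CPM in MKs cultured alone and 1614 to 2330 CPM in cocultures. Of 15 genes 1 was called, and lower, with a median log2 fold change of -0.24. The gene called lower was Nfe2, chosen here after its value was seen, a transcription factor of MKs and other myeloid cells. Nfe2 had a log2 fold change of -2.72 ± 0.70 (edgeR adjusted p = 0.0234), and its call was lost without replicate 2, 3 or 4 of MKs cultured alone or without replicate 2 of the cocultures. Without replicate 3 of the cocultures, 3 genes of the list were called lower and 1 higher. Pf4, platelet factor 4, measured 841 ± 210 and 1070 ± 362 CPM (log2 fold change 0.35 ± 0.28, edgeR adjusted p = 0.409), and Ppbp, pro-platelet basic protein, 219 ± 52.9 and 279 ± 35.6 CPM (log2 fold change 0.35 ± 0.22, edgeR adjusted p = 0.282). Chil3 alone was thus several times the sum of these 15 markers in MKs cultured alone, and below it in each coculture. The part of each cell type in the chitinase-like levels was not tested.

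**Figure D4:**
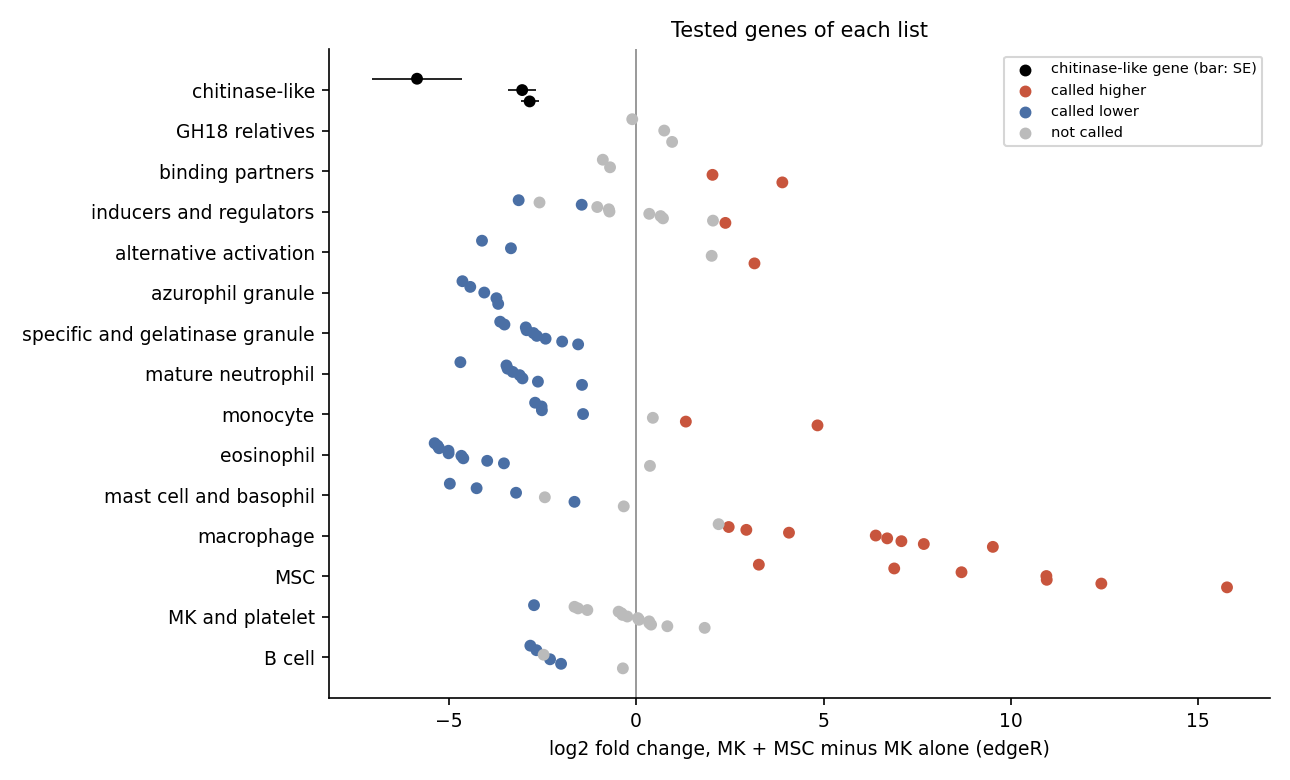
Log2 fold change (x axis, MKs cocultured with MSCs minus MKs cultured alone, edgeR) of every tested gene in each of the 14 lists (rows), colored by its call, with Chil1, Chil3 and Chil5 and their SE in the top row. The fitted values of Marco and Lox, at 0 in all MK-alone libraries, depend on the prior count. The 3 chitinase-like genes at -2.84, -3.04 and -5.85 lie on the same side of 0 as the called genes of the neutrophil, eosinophil, mast cell and B cell lists. They lie opposite to the called genes of the macrophage and MSC lists. Called genes of the monocyte list lie on both sides, and the median of the MK and platelet list is -0.24.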

How the data were processed

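Bulk RNA-Seq was performed on low-input SMART-Seq HT libraries of MKs cultured alone (n = 4) or with MSCs (n = 4). The authors filtered reads with fastp, estimated transcript abundance with kallisto (mm10 transcriptome) and deposited whole-number counts per gene without normalization. How counts were summed over transcripts and rounded is not given in the sources used here. Because kallisto divides shared words between transcripts by estimation, values of near-identical copies such as Chil3 and Chil4 are uncertain. No gene in the table had fewer than 11 counts in all, and library totals of 4939874 to 12523616 set the precision of low values.

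Members and lists were chosen with earlier results of these data known. CPM used TMM factors, and 11722 genes passed filterByExpr of edgeR (minimum count 10, minimum total 15). The quasi-likelihood test of edgeR 4.0.16 (robust, R 4.3.3) was fitted to all libraries without a covariate, since the batch term in the authors' DESeq2 design is not named. Calls needed an adjusted p (Benjamini-Hochberg) up to 0.05, a 2-fold change and 1 CPM in a group. Each SE of an edgeR log2 fold change was its absolute value divided by the square root of the quasi-likelihood F statistic. The genes named were the 4 members, the measured relatives and binding partners, the 2 most abundant genes of each other list, and the 3 genes most like each member by Pearson's r of log2(CPM + 1). Transcript positions and lengths came from GENCODE vM21 on GRCm38, and promoters from RefSeq, where all 4 genes matched. Scripts were tested on simulated data. Alternatives were DESeq2 1.42.0, other scalings and filters, the replicate number as a block, and each library left out in turn. Replicates of a group differed by more than sampling noise (chi-square per degree of freedom 13.8 to 370 over 12 pairs), so none was counted as a duplicate.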

Additional observations from a re-analysis of the deposited data

Results flagged for a closer look

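The levels of the 4 genes, the Chil3 share, the ratio of Chil3 to Chil1 counts and the summed levels of the 14 lists were screened, group by group, for 1 value separated from the remaining 3 by more than Dixon's 95% limit. This occurred in 4 of 40 sets of values, against about 2 from chance alone, and coculture replicate 3 gave 2 of these 4 values. Chil5 stood apart at 21.1 CPM in replicate 3 of MKs cultured alone and at 1.04 CPM in replicate 2 of the cocultures, the latter from 8 counts. The summed level of the binding partners stood apart at 10432 CPM in replicate 3 of the cocultures, of which Lgals3 made up 10205 CPM. The alternative activation genes summed to 73.1 CPM in the same library, with Mrc1 at 40.8 CPM and Egr2 at 32.1 CPM. The cause of these values was not tested.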

How the results depend on the processing

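The log2 fold changes of Chil1 (-2.97 to -2.73) and Chil3 (-3.19 to -2.83) kept their direction and moved by less than the spread between replicates under all alternatives run on 8 libraries, and they spanned -2.98 to -2.68 and -3.21 to -2.79 when single libraries were omitted. Chil4 had a value only without the filter or with a library omitted, from -2.45 to -2.09. Chil5 moved from -5.85 to -6.83 when edgeR took the replicate number as a block and to -7.29 when DESeq2 did, and omitting single libraries gave -8.21 to -5.39. Requiring 10 counts in each library removes Chil4 and Chil5, so 2 chitinase-like genes were called there, against 3 under the other alternatives. Calls over all genes ran from 1669 (replicate block, 1096 higher and 573 lower) to 3171 (DESeq2 with the block), and omitting single libraries gave 1634 to 4420, with 4420 without replicate 3 of the cocultures. Higher genes made up 1544 of 2401 calls, and 1857 against 630 lower when libraries were scaled to MK and platelet markers, which moved the median of all genes to 0.19. Of the list genes 69 were called, 49 to 74 under the alternatives and 61 to 84 on omitting a library. The difference in the Chil3 share, -1.83 percentage points, was -1.52 per kilobase and lay between -2.85 and 0.59 on omitting a library.

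The same replicate numbers occur in each group, but the deviations of same-numbered libraries correlated over 0.1 in 2 of 4 pairs (r = 0.020 to 0.369), and 2 of 4 MK-alone libraries correlated best with their own number, so the numbers were not taken to pair the libraries. Libraries with different numbers had r from -0.282 to 0.099, so this check cannot decide whether the numbers mark pairs. With the replicate block in edgeR, Chil1 had -2.86 and Chil3 -3.17, and Mrc1, Mgl2, Clec10a, Nfe2 and Ms4a1 were not called.

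Among the named list genes, values turned sign for Ctbs (0.016 scaled by library size only, 0.14 scaled to MK and platelet markers, 0.29 without replicate 3 of the cocultures, within -0.39 to 0.29 on omitting single libraries) and Ovgp1 (-0.60 with the replicate block, -0.65 with the block in DESeq2, -1.47 without that replicate, within -1.47 to 1.21 on omitting single libraries). Of the other values 577 kept their direction and their side of the threshold, 30 no longer passed it and 6 newly passed it, among them Prss34 with DESeq2 without the block (-2.47) and with it (-2.97). The cause of these changes was not tested. Depth limits Chil4 in both groups and Chil5 in cocultures, where most libraries lay under 3 counts. Shared sequence limits Chil3, Chil4 and Chil5 as far as kallisto's division of reads is not known.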
